A study of Mus musculus with 32 samples.

Results

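The genes described here are 10 genes of the mouse MHC class II antigen presentation machinery, followed across 6 populations of mouse bone marrow. They are the chains H2-Aa, H2-Ab1 and H2-Eb1, the invariant chain Cd74, the peptide-loading chains H2-DMa, H2-DMb1, H2-DMb2, H2-Oa and H2-Ob, and the transcriptional coactivator Ciita. Members were the probe sets of both chip types to which the platform annotation gave one of these symbols alone, which were 19 of 45037 probe sets, 12 on chip type A and 7 on chip type B. Of the 10 genes, 9 had a probe set of their own, among 18193 genes that did, and H2-DMb1 was measured only by 2 probe sets shared with H2-DMb2. A further probe set was shared by H2-Ob and Gm20506. A filter on low signals was passed by 16 of the 19 probe sets, covering 8 genes, and the 3 that did not pass were all for Ciita.

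The 6 populations were profiled on Affymetrix MOE430A and MOE430B arrays (chip types A and B), with 1 array of each type for each of 16 RNA samples. Stem-enriched cells (Lin-Sca-1+cKit+), cKit+ cells (Lin-Sca-1-cKit+) and cKit- cells (Lin-Sca-1-cKit-) were sorted by flow cytometry, lineage-depleted marrow (Lin-) came from an enrichment kit, and total marrow was the unfractionated reference, each with 3 samples. The sixth population, Lin-Sca-1+cKit- cells, had 1 sample and enters no test. Strain, age, sex and treatment of the mice are not given in the sources used here, and no group is described as carrying a modified allele. Whether the triplicates were drawn from different mice is not in the labels, so the p-values measure the spread between these samples, which may be partly technical. Kit, the receptor used in the sorts, had a mean log2 signal of 12.24 ± 0.09 (SD, n = 3) in stem-enriched and 12.19 ± 0.13 (n = 3) in cKit+ cells against 9.79 ± 0.46 (n = 3) in cKit- cells, in the order of the labels.

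MHC class II molecules are pairs of one alpha and one beta chain that carry peptides from endosomes to the cell surface, where helper T cells read them. H2-Aa pairs with H2-Ab1 and H2-Eb1 pairs with H2-Ea. Cd74, the invariant chain, fills the groove until proteases degrade it, H2-DM then exchanges the remaining fragment for a peptide, and H2-O restrains H2-DM. Ciita is the coactivator that drives these genes from a shared promoter module of X and Y boxes. In marrow the pathway is known for B cells, dendritic cells and monocytes.

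The promoter stretches below are printed to show which of the windows at hand held matches to these boxes. RefSeq promoter windows (300 bases on GRCm38.p6, from 250 bases before to 50 after the gene start) were at hand for 7 of the 10 genes, in 8 windows. They were searched on both strands for the X core ACNGATG, where N is any base, and the Y core ATTGG. Capitals mark the matches, and each stretch reads 5′ to 3′ on the strand of its gene.
H2-Eb1 (chr17:34305771-34305817, plus strand): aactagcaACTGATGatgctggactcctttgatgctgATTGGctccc
H2-DMb1 (chr17:34153092-34153139, plus strand): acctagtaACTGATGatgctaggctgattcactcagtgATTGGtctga
H2-DMb2 (chr17:34145121-34145168, plus strand): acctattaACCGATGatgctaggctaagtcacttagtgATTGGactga
H2-Aa (chr17:34287862-34287909, minus strand): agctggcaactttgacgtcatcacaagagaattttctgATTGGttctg
H2-Oa (chr17:34092298-34092345, plus strand): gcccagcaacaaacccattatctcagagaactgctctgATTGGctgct
H2-Ob (chr17:34238810-34238857, plus strand): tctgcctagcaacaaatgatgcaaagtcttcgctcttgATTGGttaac

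In the first 3 stretches the X core lay upstream of the Y core in the orientation of the gene, with 22 bases between them at H2-Eb1 and 23 at H2-DMb1 and H2-DMb2. Such a pair, with 12 to 40 bases between the cores, was found in 3 of the 8 member windows and in 0.213% of all 32851 windows. H2-Aa, H2-Oa and H2-Ob held the Y core in the same region, between 43 and 57 bases before the gene start, without an X core matching these letters at that spacing. Of the H2-DMa windows, 1 held neither core and the other held a Y core alone. Of all windows, 37.4% held a Y core and 9.85% an X core, with or without the other.

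Signals were MAS5 values scaled by the submitters so that every array has nearly the same trimmed mean, which makes them comparable between samples of 1 chip type but not between probe sets. They were floored at 162.3 on chip type A and 268.1 on chip type B, the 25th percentile of each, before log2 was taken. Each of the 28949 probe sets that passed the filter was tested with limma over the 15 samples of the 5 replicated populations, with Benjamini-Hochberg adjustment over all of them, and called at an adjusted p under 0.05. In bulk RNA a lower signal from fewer cells that carry a transcript and one from less transcript per cell cannot be told apart.

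Over the 5 populations, 11 of the 16 tested member probe sets differed in limma's F test, from 7 genes, where 17.1% of all tested probe sets did. H2-Aa, H2-Ab1, H2-Eb1, Cd74 and H2-DMb2 were highest in total marrow, and H2-Ob, H2-DMa and H2-Oa in stem-enriched cells. The lowest mean was in cKit+ cells for 6 of the 8 tested genes and in total marrow for the other 2, H2-DMa and H2-Oa. Between populations next to each other in a gene's order of means, 4 of 32 differences were called. The others missed the threshold after adjustment, which does not show that the populations were equal. Some of these, such as H2-Ob between stem-enriched cells and total marrow, had samples that did not overlap. The plot of signals by sample shows the 8 genes.

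**Figure D1:**
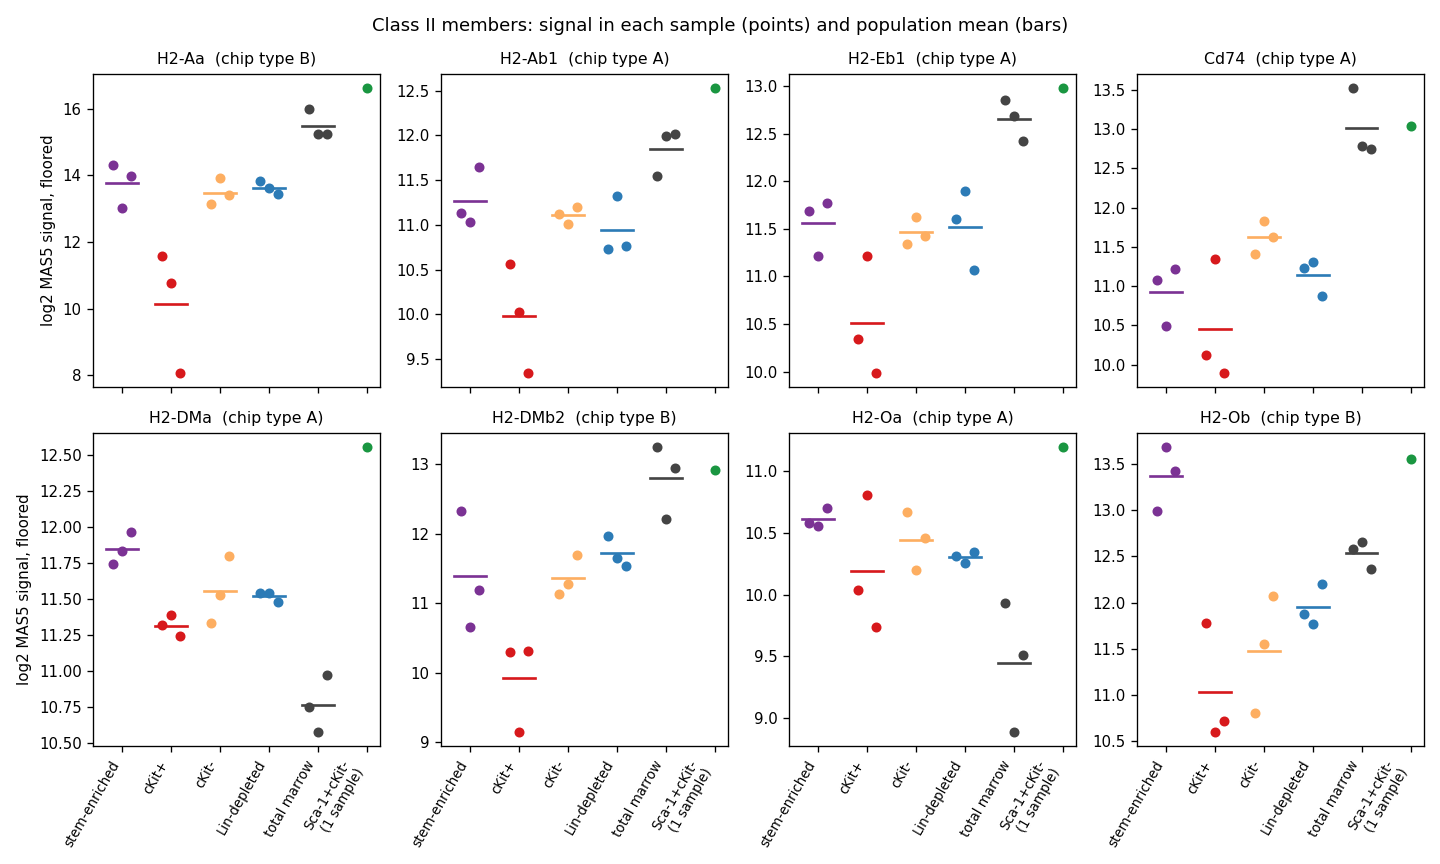
log2 MAS5 signal (vertical axis, floored) of the representative probe set of each of 8 genes in every sample of the 6 populations. Points are samples and bars are means of 3 samples. H2-Aa, H2-Ab1, H2-Eb1, Cd74 and H2-DMb2 are highest in total marrow among the replicated populations, H2-DMa and H2-Oa are lowest there, and H2-Ob is highest in stem-enriched cells.

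H2-Aa, the alpha chain of the I-A molecule, gave the widest spread of any member. Its brightest probe set (1438858_x_at, chip type B) read 64728, 38665 and 38695 in total marrow. It read 20075, 8268 and 16216 in stem-enriched cells, 8963, 15525 and 10774 in cKit- cells, and 14429, 12589 and 11083 in lineage-depleted marrow. In cKit+ cells it read 3048, 1744 and 258, the last under the floor. Every cKit+ sample was thus below every sample of the other 4 replicated populations, and every total marrow sample was above all of them. The stem-enriched, cKit- and lineage-depleted ranges overlapped.

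The difference between cKit+ cells and total marrow was -5.35 ± 0.58 (SE) in log2 for this probe set (adjusted p = 4.47e-06). cKit+ cells were also lower than stem-enriched cells, which exceeded them by 3.63 ± 0.58 (adjusted p = 0.00229), than cKit- cells by -3.35 (adjusted p = 0.000839) and than lineage-depleted marrow by -3.49 (adjusted p = 0.00224). Because 1 of the 3 cKit+ samples sat at the floor, these differences depend on it: leaving out cKit+ replicate 3 gave 2.59 for stem-enriched against cKit+ cells, and leaving out cKit+ replicate 1 gave 4.35. The second bright probe set, 1435290_x_at on chip type A, did not touch the floor. It read 3553, 1587 and 1095 in cKit+ cells against 14407, 7673 and 14178 in stem-enriched cells, a 6.33-fold difference (log2 2.66 ± 0.34, adjusted p = 0.000549). That call was kept with chip lot as a block and when any 1 sample was left out.

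Against total marrow, 1435290_x_at was lower in stem-enriched cells by -1.18 (adjusted p = 0.0265) and in lineage-depleted marrow by -1.51 (adjusted p = 0.0184). The first was lost without stem-enriched replicate 2 or any 1 of the 3 total marrow samples (adjusted p 0.0551 to 0.140), and with chip lot as a block it fell to -0.33 (adjusted p = 0.764). The second was lost without any 1 sample of either population (adjusted p 0.0508 to 0.0861) and with the lot block (adjusted p = 0.0963). For 1438858_x_at the same 2 differences, -1.72 and -1.86, missed the threshold (adjusted p = 0.0543 and 0.0791), although the samples did not overlap. The 2 remaining H2-Aa probe sets were dimmer, and both were lower in cKit+ cells than in total marrow, by -2.44 for 1452431_s_at and -2.94 for 1443783_x_at (adjusted p = 0.000411 and 0.00107). On 1443783_x_at, 2 of the 3 cKit+ samples lay at the floor, so its difference is a lower bound in size. Lineage-depleted marrow, with 1 sample at the floor, was lower than total marrow on it by -2.72, kept without any 1 sample. Stem-enriched cells were not called on it. On 1452431_s_at stem-enriched cells (-1.55, adjusted p = 0.0131) and lineage-depleted marrow (-1.56, adjusted p = 0.0322) were lower than total marrow. Both were lost with chip lot as a block (adjusted p = 0.200 and 0.164). Leaving out 1 sample lost them 3 and 6 times.

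H2-Ab1, the beta chain that pairs with H2-Aa, was also highest in total marrow and lowest in cKit+ cells among the replicated populations. Its representative probe set (1450648_s_at) read 2989, 4061 and 4131 in total marrow and 1518, 1042 and 650 in cKit+ cells. Stem-enriched cells read 2240, 2088 and 3198, cKit- cells 2219, 2062 and 2351, and lineage-depleted marrow 1698, 2556 and 1739. cKit+ cells were lower than total marrow by -1.87 ± 0.29 (adjusted p = 0.000300), with no overlap. They were lower than cKit- cells by -1.13 (adjusted p = 0.0174), a call lost without cKit+ replicate 3 or cKit- replicate 3 (adjusted p 0.0541 to 0.0720). Stem-enriched cells exceeded cKit+ cells by 1.29 (adjusted p = 0.0273), and this was lost without cKit+ replicate 3 or stem-enriched replicate 2 or 3 (adjusted p 0.0618 to 0.141). The difference between stem-enriched cells and total marrow, -0.58 (95% interval -1.19 to 0.03), was not called.

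The other 2 H2-Ab1 probe sets were dim. The F test called neither of them, with adjusted p = 0.0719 for 1425477_x_at and 0.318 for 1451721_a_at. On 1425477_x_at every stem-enriched and every cKit+ sample lay at the floor, while total marrow read 672, 473 and 742. The floored log2 difference of -1.93 from total marrow is therefore only a lower bound on its size in either population (adjusted p = 0.0249 for stem-enriched and 0.0223 for cKit+ cells). The probe set passed the filter on low signals only with its total marrow readings. These calls are thus no separate evidence of a high level there. Both calls were lost with chip lot as a block (adjusted p = 0.128 and 0.0659). Leaving out any 1 stem-enriched or total marrow sample lost the stem-enriched call (adjusted p up to 0.108), and leaving out total marrow replicate 1 or 3 lost the cKit+ call (up to 0.0965).

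H2-Eb1, the beta chain of the I-E molecule, read 7407, 6559 and 5493 in total marrow and 1300, 2370 and 1012 in cKit+ cells. It read 3306, 2367 and 3496 in stem-enriched cells, 2600, 3144 and 2755 in cKit- cells, and 3118, 3804 and 2141 in lineage-depleted marrow. Total marrow stood above every other replicated sample, while the highest cKit+ sample reached the lowest stem-enriched one. cKit+ cells were 4.41-fold lower than total marrow (log2 -2.14 ± 0.29, adjusted p = 9.96e-05), a call kept under every alternative. Stem-enriched cells were lower than total marrow by -1.10 (adjusted p = 0.0181), which was lost without stem-enriched replicate 2 or total marrow replicate 1 or 2 (adjusted p 0.0633 to 0.0927). Lineage-depleted marrow was lower by -1.13 (adjusted p = 0.0379), lost without any total marrow sample, lineage-depleted replicate 1 or 3 or cKit- replicate 2 (adjusted p 0.0514 to 0.176). The difference of -0.95 between cKit+ and cKit- cells (adjusted p = 0.0448) was lost without any 1 of 11 of the 15 samples (adjusted p 0.0532 to 0.158). Without cKit+ replicate 2 it was larger in size, at -1.30 (adjusted p = 0.00218). With chip lot as a block these last 3 calls were lost, at adjusted p = 0.0562, 0.0598 and 0.119.

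Cd74, the invariant chain, read 11793, 7050 and 6849 in total marrow. It read 2161, 1443 and 2385 in stem-enriched cells, 1113, 2611 and 951 in cKit+ cells, 2714, 3634 and 3169 in cKit- cells, and 2413, 2530 and 1877 in lineage-depleted marrow. Its mean log2 signal was 10.93 ± 0.38 (n = 3) in stem-enriched, 10.45 ± 0.78 (n = 3) in cKit+ and 11.62 ± 0.21 (n = 3) in cKit- cells, and stem-enriched cells were not called against either of the others. The cKit+ spread came mostly from replicate 2, which read higher than the other 2 samples. Against total marrow, Cd74 was lower in stem-enriched cells by -2.09 ± 0.33 (adjusted p = 0.000470), in cKit+ cells by -2.56 (adjusted p = 6.3e-05) and in lineage-depleted marrow by -1.88 (adjusted p = 0.00533). These 3 calls were kept with chip lot as a block and when any 1 sample was left out. The difference between cKit+ and cKit- cells, -1.17 (adjusted p = 0.0319), was lost without any 1 cKit- sample or without cKit+ replicate 1 or 3 (adjusted p 0.0514 to 0.125). It was also lost with chip lot as a block (adjusted p = 0.0744). Without cKit+ replicate 2 the difference was larger in size, at -1.61 (adjusted p = 0.000672).

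H2-DMb2, a beta chain of the peptide editor H2-DM, was highest in total marrow too. Its representative probe set (1443687_x_at) read 9769, 4770 and 7887 there and 1257, 565 and 1273 in cKit+ cells, with 5148, 1620 and 2333 in stem-enriched cells. cKit- cells read 2236, 2480 and 3330, and lineage-depleted marrow 3992, 3209 and 2982. cKit+ cells were lower than total marrow by -2.89 ± 0.41 (adjusted p = 8.5e-05), than lineage-depleted marrow by -1.80 (adjusted p = 0.0315) and than cKit- cells by -1.45 (adjusted p = 0.0267). The last 2 were lost without cKit+ replicate 2 (-1.41 with adjusted p = 0.102, and -1.06 with adjusted p = 0.0875). They were also lost without cKit- replicate 2 or 3 (adjusted p 0.0729 to 0.0958, for cKit- cells) and without any lineage-depleted sample or total marrow replicate 3 (adjusted p 0.0506 to 0.137, for lineage-depleted marrow). Stem-enriched cells were lower than total marrow by -1.41 (adjusted p = 0.0259), although stem-enriched replicate 1 exceeded total marrow replicate 2. This call was lost without stem-enriched replicate 2 or 3 or total marrow replicate 1 or 3 (adjusted p 0.0912 to 0.143).

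H2-DMb2 was also read by 1443686_at, which gave total marrow 8952, 4614 and 6251 and cKit+ cells 1323, 1454 and 1471, a difference of -2.17 (adjusted p = 0.000284). It was the only member probe set called between cKit- cells and total marrow, at -1.59 (adjusted p = 0.0413). That call was lost with the replicate block (adjusted p = 0.0508) and when any 1 of 9 samples was left out (highest adjusted p = 0.163). The third probe set, 1419744_at, was not called (adjusted p = 0.656 in the F test). The brighter probe set that H2-DMb2 shares with H2-DMb1 (1449580_s_at) read 1821, 1597 and 1901 in total marrow and 3604, 2845 and 2205 in cKit- cells, so it was not highest in total marrow. The dimmer shared probe set, 1418638_at, read 638, 410 and 508 in total marrow, which had its lowest mean among the replicated populations. It read 853, 830 and 663 in cKit- cells. The F test called neither shared probe set, with adjusted p = 0.138 for 1449580_s_at and 0.396 for 1418638_at. The signal of a shared probe set cannot be split between the 2 genes.

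H2-DMa, the alpha chain that pairs with the H2-DM beta chains, ran the opposite way. It read 3426, 3661 and 4008 in stem-enriched cells and 1725, 1526 and 2011 in total marrow. cKit+ cells read 2554, 2677 and 2426, cKit- cells 2585, 2958 and 3561, and lineage-depleted marrow 2989, 2986 and 2855. All 12 other replicated samples lay above the highest total marrow sample. Stem-enriched cells were 2.12-fold higher than total marrow (log2 1.08 ± 0.19, adjusted p = 0.00101), a call kept without any 1 sample but lost with chip lot as a block (0.95, adjusted p = 0.0839). Lineage-depleted marrow was higher by 0.76 (adjusted p = 0.0331), and this was lost without any 1 sample of either population (adjusted p 0.0722 to 0.149) and with the lot block (adjusted p = 0.123).

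The chip type B probe set of H2-DMa (1459872_x_at) gave 1.10 for stem-enriched cells against total marrow, of nearly the same size, but was not called (95% interval 0.01 to 2.18, adjusted p = 0.179). The cKit+ replicate 2 sample read 392 on it, against 2910 and 2626 in the other 2.

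H2-Oa and H2-Ob are the alpha and beta chains of H2-O, and they did not share an order. H2-Oa read 1526, 1501 and 1662 in stem-enriched cells and 976, 474 and 732 in total marrow. It read 1048, 1787 and 852 in cKit+ cells, 1628, 1177 and 1404 in cKit- cells, and 1269, 1224 and 1301 in lineage-depleted marrow. Total marrow was lowest, and its range overlapped only that of cKit+ cells. Stem-enriched cells exceeded it by 1.16 ± 0.30 (adjusted p = 0.0137), a call lost without stem-enriched replicate 3 or total marrow replicate 2 (adjusted p 0.0535 to 0.0887) and with chip lot as a block (1.14, adjusted p = 0.195). The F test over all 5 populations did not call H2-Oa (adjusted p = 0.0589).

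H2-Ob read 8146, 13161 and 11002 in stem-enriched cells, above all other replicated samples. It read 6121, 6438 and 5259 in total marrow, 3766, 3495 and 4703 in lineage-depleted marrow, 1788, 2993 and 4295 in cKit- cells, and 3516, 1552 and 1690 in cKit+ cells. Stem-enriched cells were 5.04-fold higher than cKit+ cells (log2 2.33 ± 0.34, adjusted p = 0.00107) and 3.72-fold higher than cKit- cells (1.89 ± 0.34, adjusted p = 0.00129). Both calls were kept under each alternative that includes the 5 populations. The difference from lineage-depleted marrow, 1.42 (adjusted p = 0.0309), was lost without stem-enriched replicate 2 or 3 or any lineage-depleted sample (adjusted p 0.0581 to 0.164) and in the fit with chip lot as a block on chip type A (adjusted p = 0.0622). That from total marrow, 0.84 (95% interval 0.13 to 1.55), was not called. cKit+ cells were 2.82-fold lower than total marrow (adjusted p = 0.00492). The dimmer probe set shared with Gm20506 (1422201_at, chip type A) was not called in the F test (adjusted p = 0.733). Its mean log2 signal was 8.79 in stem-enriched cells, 8.05 in cKit+ cells and 7.77 in total marrow, which was lowest. That signal cannot be split between the 2 genes.

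Ciita, the coactivator, entered no test. Its 3 probe sets were dim, with signals from 73.0 to 829.6 on 1421210_at, 39.4 to 315.0 on 1421211_a_at and 38.9 to 752.3 on 1447075_at over the 16 samples, and 4, 12 and 11 of the 16 samples at or under the floor. The highest reading of both chip type A probe sets was in cKit+ replicate 2. On 1421211_a_at the 3 stem-enriched samples read 174 to 251, above the floor. Every cKit-, lineage-depleted and total marrow sample was at or under the floor there, as were 2 of the 3 cKit+ samples. On 1447075_at, 2 of the 3 stem-enriched samples were at or under the floor. Differences in Ciita between populations were not tested.

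By comparison, counts of called member probe sets were read against the share of all 28949 probe sets called in the same direction. A gene with several probe sets can be counted several times, so genes are given too. Stem-enriched cells were higher than cKit+ cells for 4 of 16, from 3 genes (all probe sets: 1.48%), and lower for none. Against cKit- cells and against lineage-depleted marrow they were higher for 1 each, H2-Ob both times (all probe sets: 3.67% and 0.781%). cKit+ cells were lower than cKit- cells for 6 of 16, from 5 genes (6.37%), and lower than lineage-depleted marrow for 3, from 2 genes (1.16%). Between cKit- cells and lineage-depleted marrow no member was called in either direction (0.681% higher and 0.819% lower in cKit- cells), and no member had an unadjusted p under 0.05.

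Against total marrow, cKit+ cells were lower for 11 of 16 member probe sets (8.43% of all), stem-enriched cells were lower for 7 (7.04%) and higher for 2 (7.15%), and lineage-depleted marrow was lower for 6 (2.15%) and higher for 1 (2.00%). cKit- cells were lower for 1 (0.204%), with member differences from -2.00 to 0.997 in that comparison. The median member log2 difference from total marrow was -2.03 in cKit+ cells, -1.14 in stem-enriched cells, -1.28 in cKit- cells and -1.11 in lineage-depleted marrow. Over all probe sets the same medians were 0.15, 0.12, 0.05 and 0.06. These 4 comparisons share the total marrow samples, so their values are given side by side and not as repeats of each other.

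**Figure D2:**
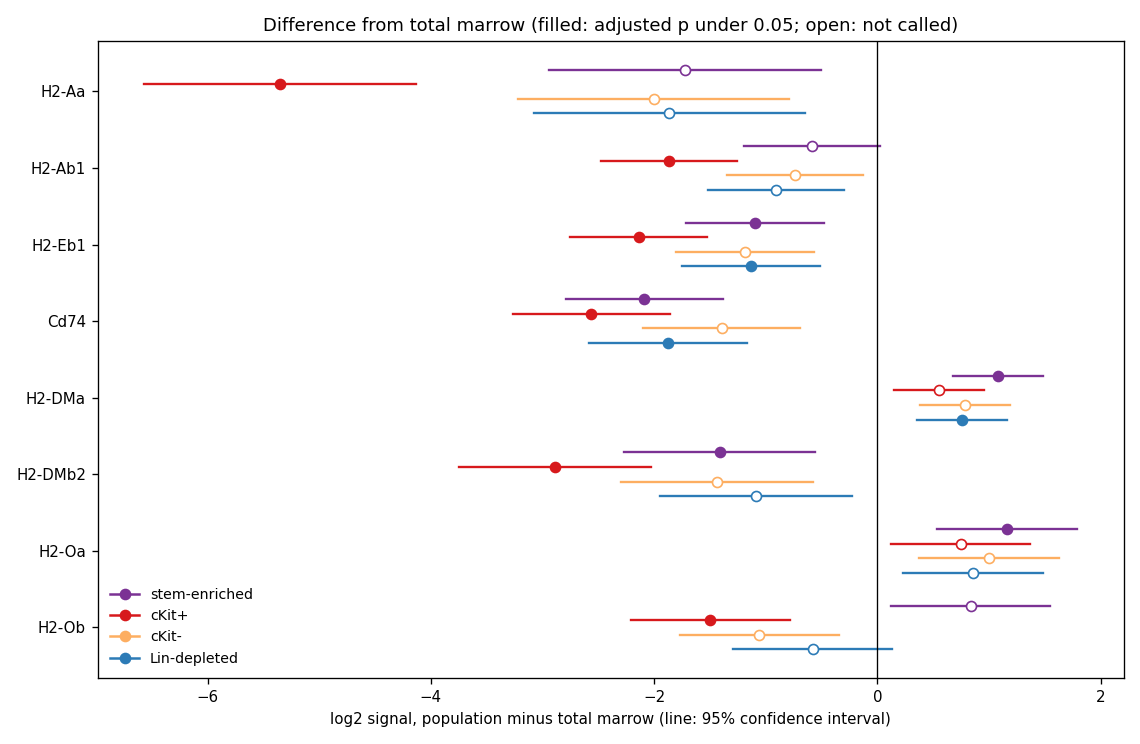
log2 difference from total marrow (horizontal axis) of each of 8 genes in 4 populations, with 95% confidence intervals from limma as lines. Filled points were called at an adjusted p under 0.05 and open points were not. H2-Aa in cKit+ cells lies at -5.35, and H2-DMa and H2-Oa lie to the right of 0 in all 4 populations.

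Several technical measures moved with these comparisons. The total marrow arrays shared a chip lot on chip type A with 1 cKit+ and 1 lineage-depleted sample, and within that lot the differences from total marrow were -2.90 (cKit+) and -2.14 (lineage-depleted) for Cd74 and -2.31 and -1.59 for H2-Eb1. Within the same lot H2-DMa was higher than in total marrow by 0.55 and 0.71. On chip type B, lot and total marrow cannot be told apart, and neither can scan day and population on either chip type except between cKit+ and cKit- cells. Within the scan day those 2 shared on chip type A, the difference between them was -2.94 for H2-Aa (1435290_x_at), -1.42 for H2-Ab1 and -1.0 for Cd74.

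The cKit+ replicate 2 arrays stood apart. Their correlation with the other samples over all probe sets was 0.723 to 0.785, against 0.844 to 0.956 for all other pairs, and their log2 ratio of 3' to 5' Gapdh control signal on chip type A was 0.38 against a mean of 3.99 ± 0.17 (n = 3) in stem-enriched cells and 3.12 ± 0.33 (n = 3) in total marrow. Without that sample the cKit+ difference from total marrow was -3.01 for Cd74, -2.49 for H2-Eb1 and -5.67 for H2-Aa (1438858_x_at), each larger in size than with it. It was smaller in size for H2-DMb2 (1443687_x_at), at -2.50, and for H2-Ob, at -1.28, and -3.74 for H2-Aa on 1435290_x_at. The part of the RNA quality difference between stem-enriched cells and total marrow in these results was not tested.

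**Figure D3:**
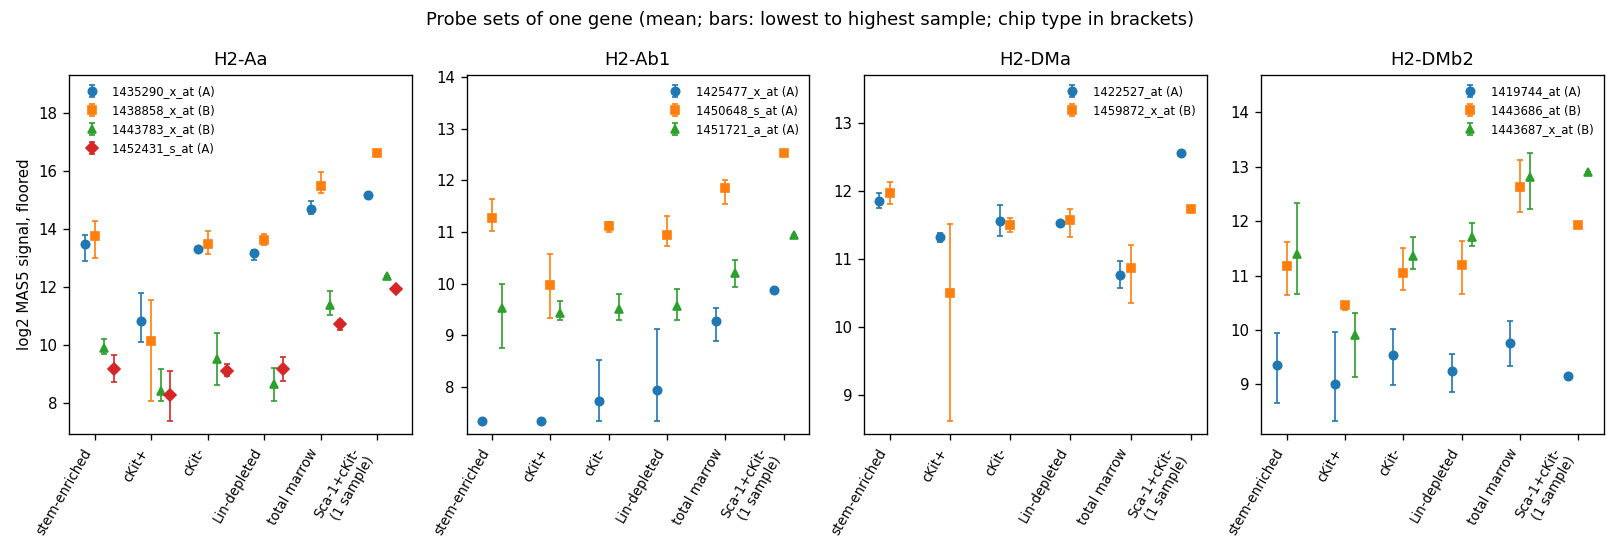
Mean log2 MAS5 signal (vertical axis, floored) of every probe set of H2-Aa, H2-Ab1, H2-DMa and H2-DMb2 in the 6 populations, with bars from the lowest to the highest sample and the chip type in brackets. The 4 H2-Aa probe sets have their highest mean among the replicated populations in total marrow and their lowest in cKit+ cells, whereas 1419744_at of H2-DMb2 is nearly level.

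Probe sets of one gene were compared over the 15 samples, which share arrays and scaling, as a description. The 2 bright H2-Aa probe sets, on different chip types, had r = 0.974, and the other H2-Aa pairs 0.759 to 0.861. The 2 H2-DMb2 probe sets on chip type B had r = 0.843, and 1419744_at had r = 0.461 and 0.393 with them. For H2-DMa the 2 probe sets had r = 0.374. Suffixes _x_at and _s_at mark probe sets whose probes can match more than one transcript, and the 2 brightest H2-Aa probe sets and the representative of H2-DMb2 are of the first kind.

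Markers of the cell types known to carry class II were followed beside the members. Of 16 B lineage markers, 14 had a probe set, none was at the floor in all 15 samples, and their summed signal was 49660 to 59023 in total marrow. It was 13348 to 19741 in stem-enriched, 9303 to 19753 in cKit+, 22410 to 29844 in cKit- and 14308 to 22925 in lineage-depleted samples. Relative to total marrow, 12 of 14 were lower in cKit+ cells (8.43% of all probe sets), 9 in stem-enriched cells (7.04%), 8 in lineage-depleted marrow (2.15%) and 2 in cKit- cells (0.204%). Cd79a, part of the B cell receptor complex, was lower by -2.39 in stem-enriched and -2.55 in cKit+ cells (adjusted p = 0.000312 and 0.000156), and Ms4a1, the CD20 antigen, by -2.94 in stem-enriched cells (adjusted p = 0.00106). The part of B cells in the class II differences was not tested.

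Between stem-enriched and cKit+ cells, limma called 0 of 14 B lineage markers higher, where 1.48% of all probe sets were, so the count says little; the median difference was 0.39. In that comparison 2 of 11 tested dendritic cell markers were higher in stem-enriched cells, and the median over the list was -0.03. They were the cytokine receptor Flt3 by 2.09 (adjusted p = 0.00654) and the transcription factor Tcf4 by 1.33 (adjusted p = 0.0409), both of which are also known in early progenitors. The summed signal of 12 dendritic cell markers was 20492 to 25182 in stem-enriched, 13186 to 17975 in cKit+ and 12753 to 18050 in total marrow samples. Monocyte and macrophage markers, 12 with a probe set, summed to 29104 to 48943 in stem-enriched and 35135 to 37596 in cKit+ cells. Their sums were 127490 to 153820 in cKit- cells and 135670 to 141791 in total marrow. Such sums, here and for the other lists, lean towards the brightest probe sets. In total marrow Lyz2 was the brightest of these 12, averaging 16.06 in log2. Against total marrow, limma called 6 of 11 tested markers lower in stem-enriched cells (7.04% of all probe sets). The count in cKit+ cells was also 6 (8.43%). Fcgr1, picked after its values were seen, was not called in the F test (adjusted p = 0.503). The summed signal of T and NK markers was highest in cKit- cells among the replicated populations, at 41270 to 68270, though not every marker was. The part of these cell types in the class II differences was not tested.

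**Figure D4:**
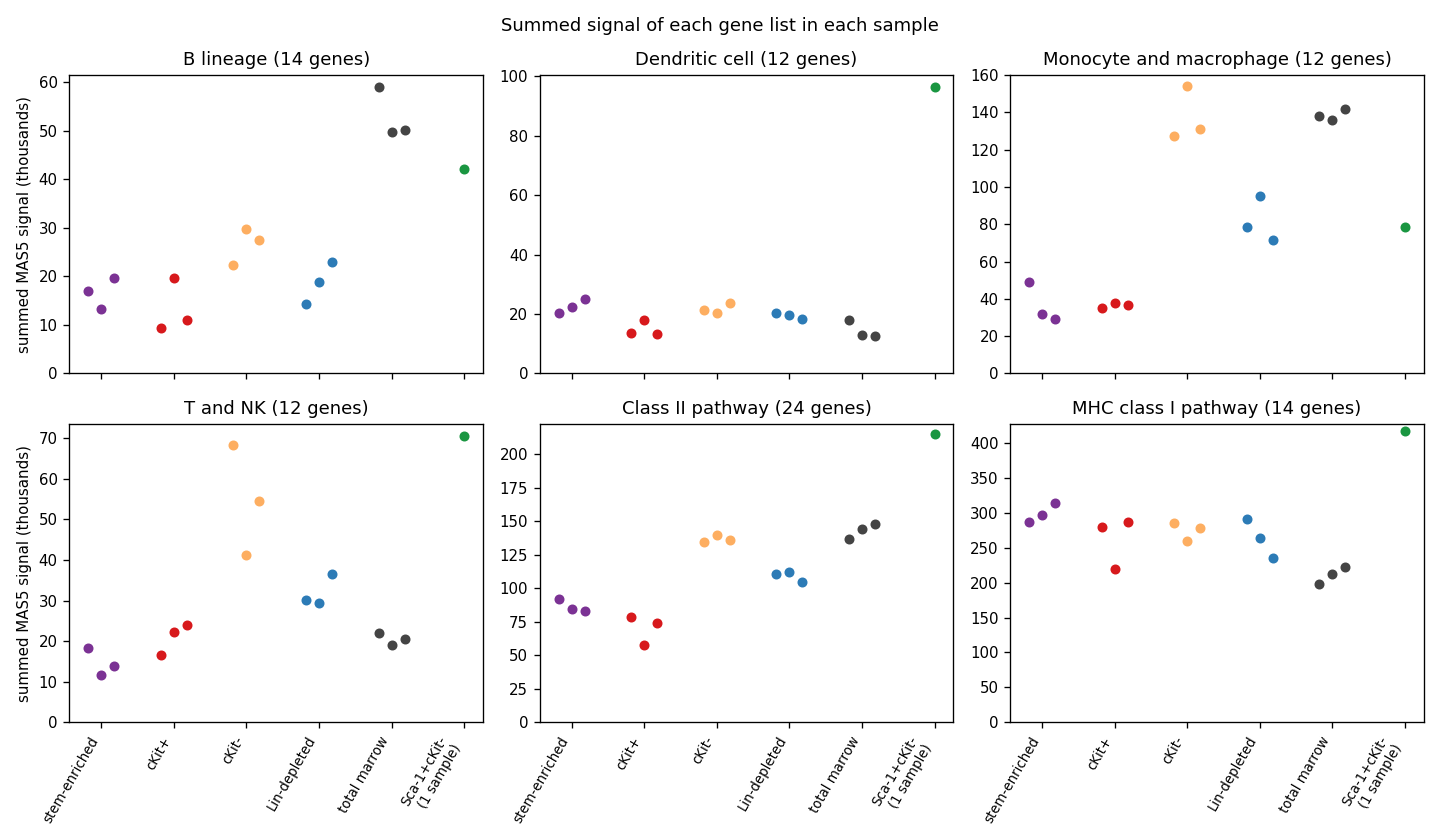
Summed MAS5 signal (vertical axis, from 0, in units of 1000) of 6 gene lists in each sample of the 6 populations. Points are samples. B lineage signal is highest in the 3 total marrow samples, and dendritic cell signal is highest in the single Sca-1+cKit- sample, at 96315.

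Genes that work with class II, from antigen-processing proteases to regulators, were taken as a list of 25, of which 22 were tested. cKit+ cells were lower than total marrow for 9 of 22 (8.43% of all probe sets) and higher for 1 (8.45%), and stem-enriched cells were lower for 9 (7.04%) and higher for 1 (7.15%). Ctss, the protease that trims the invariant chain in B and dendritic cells, was lower than in total marrow by -3.15 in cKit+ cells (adjusted p = 9.96e-08) and by -1.74 in stem-enriched cells (adjusted p = 6.02e-05). Ctss was higher in stem-enriched than in cKit+ cells by 1.41 (adjusted p = 0.00288) and was the 1 list gene called there. Ifi30, the reductase that unfolds antigens, was lower by -2.70 in cKit+ and -2.40 in stem-enriched cells (adjusted p = 1.58e-06 and 6.51e-06). Irf4, a transcription factor of B and dendritic cells, was at the floor in every cKit+ sample, and the -3.38 from total marrow is a lower bound on its size (adjusted p = 3.55e-05).

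Stem-enriched cells were lower than cKit- cells for 7 of 22 list genes, where 4.73% of all probe sets were, and for 0 of 16 member probe sets; the 1 member with an unadjusted p under 0.05 in limma was H2-Ob, which was higher. The difference between these counts was not tested. Ifi30 was lower by -2.84 and Ctsb, a lysosomal protease, by -1.71 (adjusted p = 1.41e-06 and 2.69e-05). The interferon-regulated factor Irf8 was lower by -1.89 (adjusted p = 0.000668). H2-Aa in the same comparison was 0.28 ± 0.58 (SE), H2-Eb1 0.09 ± 0.29 and Cd74 -0.69 ± 0.33, none called. Rfx5, a subunit of the factor that binds the X box, named for that role after its values were seen, had means of 13.27 ± 0.13 (n = 3) in stem-enriched and 12.06 ± 1.30 (n = 3) in cKit+ cells and was not called in the F test (adjusted p = 0.142).

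The class I pathway, which presents peptides from the cytosol, was taken as the nearest comparison. Of 14 tested genes, stem-enriched cells were higher than total marrow for 7 (7.15% of all probe sets) and lower for none (7.04%). cKit+ cells were higher for 6 (8.45% of all probe sets) and lower for 1 (8.43%). Lineage-depleted marrow was higher for 3 (2.00%). The peptide transporter subunits Tap1 and Tap2 were higher in stem-enriched cells by 1.04 and 1.02 (adjusted p = 0.00102 and 0.00209). In the same comparison H2-DMa and H2-Oa were higher, and H2-Eb1 and Cd74 lower. Whether the 2 pathways differ from each other was not tested.

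Genes most like the class II chains were ranked by Pearson correlation over the 15 samples with the mean standardised signal of H2-Aa, H2-Ab1, H2-Eb1 and Cd74, among 13591 genes. The 15 points share arrays, scaling and 5 populations, so the values are a description. The 8 highest were Igkv8-30 (r = 0.946), Slc35d2 (0.919), Tor1aip1 (0.917), Fcrla (0.905), Dstyk (0.902), Plekha2 (0.896), Ypel5 (0.896) and Wbp2 (0.893). Igkv8-30 is an immunoglobulin light chain segment and Fcrla a B cell protein of the Fc receptor family. Between 3 and 8 of these 8 stayed in the top 8 when 1 sample was left out, with 3 left without cKit+ replicate 2. Cd79a ranked 54. Among the members outside the mean, the representative of H2-DMb2 had r = 0.808, H2-Ob 0.498, H2-Oa -0.326 and H2-DMa -0.384.

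The single Lin-Sca-1+cKit- sample had no replicate, and its values have no test. It was above every one of the 15 other samples for 10 of the 16 tested member probe sets, where 7.63% of all tested probe sets were. Several of the 10 were probe sets of the same gene, H2-Aa or H2-Ab1. H2-Aa read 100817 on 1438858_x_at, against 64728 in the highest other sample, and 36841 on 1435290_x_at, against 32076. H2-Ab1 read 5913 against 4131, H2-Eb1 8076 against 7407, and H2-DMa 6033 against 4008. It was not the highest for Cd74 (8441 against 11793), H2-DMb2 (7716 against 9769), H2-Ob (12016 against 13161) or H2-DMa on 1459872_x_at (3409 against 4509). At least 2-fold above all others was 1 member, H2-Aa on 1452431_s_at, at 3889 against 1878 (all probe sets: 0.563%).

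This sample was run on the chip lots and scan days of total marrow on both chip types. Its 12 dendritic cell markers summed to 96315, against at most 25182 in any other sample. Siglech and Ccr9, markers of plasmacytoid dendritic cells that were chosen after their values were seen, had log2 signals of 14.95 and 13.00, against means of 11.08 to 11.86 and 7.91 to 9.21 in the replicated populations. Irf8, chosen in the same way, had 15.55, against means of 11.92 to 13.81. Its B lineage sum was 42012, below the total marrow range, but single B lineage markers went both ways. Fcrla had 11.18, against a total marrow mean of 10.39, and Ms4a1 had 10.19, against 11.94, both picked after their values were seen. The T and NK sum of the single sample was 70637, against at most 68270 in any other sample. Its class I sum was 416554, against at most 313214. The part of these cell types in its class II signal was not tested.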

How the data were processed

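RNA of 16 samples was labelled with biotin and hybridised to 32 Affymetrix arrays, 1 of each chip type per sample. The authors deposited MAS5 signal intensity per probe set, per the submitters' processing notes, in which no version, detection call or genome build is given in the sources used here. Their intensity values were already scaled, with a trimmed mean near 1500 on every array. Other text fields deposited with each array, the instrument records, gave chip lot and scan day and matched the labels for all 32 arrays. In the main fit, replicate numbers only name samples.

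From these, 64 control probe sets per chip type and 100 chip type B probe sets also on chip type A were left out. Signals were floored at the 25th percentile of the chip type, and probe sets above its median on at least 3 of 16 arrays were kept, 13774 on chip type A and 15175 on chip type B. log2 signals computed from the deposited values were fitted with limma 3.58.1 (R 4.3.3; lmFit, eBayes with a variance trend) over 15 samples, each chip type separately, and adjusted together. Tables were handled with pandas 2.3.3 and NumPy 2.4.6 in Python 3.11.15, and plots were drawn with matplotlib 3.10.9. The procedure was tested on simulated data.

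Of 45037 probe sets, 34945 had 1 gene symbol in the platform annotation, 932 several and 9160 none. A gene with several probe sets was represented by the tested one with the highest mean log2 signal, and the others were given beside it. All 10 members were named, with the 8 genes most like them and up to 4 called genes per other list with the lowest adjusted p; other genes named are said to be chosen after their values were seen, and Kit was given as the sort check. The members, lists and motifs were chosen with earlier results of these data known. Alternatives covered normalization, floor, filter, variance trend, blocks and leaving out each sample. Array number limits the precision.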

Additional observations from a re-analysis of the deposited data

Results flagged for a closer look

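In the single Lin-Sca-1+cKit- sample, which enters no test, H2-Aa on 1452431_s_at was 2.071-fold above the highest of the 15 other samples, at 3889 against 1878 in a total marrow sample. It was picked out because it is a signal in a sample that no comparison uses. The other 3 H2-Aa probe sets were also highest in that sample, at 1.56-fold above the highest other sample for 1438858_x_at. There is no replicate check on these values, and the sample shared its chip lot and scan day with total marrow.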

How the results depend on the processing

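Of 43 called differences of member probe sets, none reversed under any alternative run. Quantile normalization lost 3 of these calls, no floor 3, raising the floor to the chip median 2, leaving out the filter 13, chip lot as a block 15, no variance trend 10, and fitting only the 2 compared populations 11. The filter at the 75th percentile lost none of the 41 it could test. Scan day as a block, run on cKit+ and cKit- cells alone, lost 4 of 6. Fitting those 2 populations without the block lost the same number, and the part of scan day in the loss was not tested. The deviations of 30 same-numbered pairs had r from -0.083 to 0.119, with a median of 0.015 against -0.003 for other pairs. Of 15 samples, 9 correlated best with their own number. Whether replicate numbers pair the samples was not tested. The replicate block lost 1 call, H2-DMb2 on 1443686_at between cKit- cells and total marrow (adjusted p = 0.0508). Leaving out 1 sample in turn, counts of member calls ranged from 11 to 14 in the F test (3467 to 7113 over all probe sets, against 4947), 3 to 6 for stem-enriched against cKit+, 1 to 1 for stem-enriched against cKit-, 2 to 6 for cKit+ against cKit-, 0 to 1 for stem-enriched against lineage-depleted, 2 to 5 for cKit+ against lineage-depleted and 0 to 0 for cKit- against lineage-depleted. Against total marrow they ranged from 4 to 11 for stem-enriched, 10 to 12 for cKit+, 0 to 8 for cKit- and 2 to 10 for lineage-depleted samples. Counts moved by over 1.5 times as follows. Stem-enriched against cKit+ (4) gave 0 with only 2 populations. cKit+ against cKit- (6) gave 3 with no filter or no trend and 2 with only 2 populations or the scan day block. Stem-enriched against lineage-depleted (1) gave 0 with no filter, the lot block or no trend. cKit+ against lineage-depleted (3) gave 1 with no filter and 0 with only 2 populations. Stem-enriched against total marrow (9) gave 3 with the lot block. cKit- against total marrow (1) gave 0 with quantile normalization, no floor, the replicate block, the lot block or no trend, 5 with the higher floor, 2 with the stricter filter and 6 with only 2 populations. Lineage-depleted against total marrow (7) gave 4 with no filter or no trend and 3 with the lot block. The cause was not tested. Of the 8 genes most like the class II chains, 3 stayed with Spearman's rank correlation. Signals near the floor limit Ciita and the dimmer H2-Ab1 probe sets.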

Other observations

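H2-Ea, the alpha chain that pairs with H2-Eb1, is no member and was looked up after the values were seen. Its 3 probe sets were dim, at 146 to 1157 on 1422891_at, 21.5 to 230.9 on 1422892_s_at and 19.6 to 262.4 on 1426202_at over 16 samples. On the last 2, 10 and 12 of the 16 samples were at or under the floor, and the highest reading of the first was in a stem-enriched sample. H2-Eb1 read 1012 to 8076 in the same samples. Levels of different probe sets are not comparable, so these ranges give no ratio of the chains.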
